A study of Mus musculus with 4 samples.

Results

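MHC class II molecules and their assembly and control genes were followed through 4 tumors. The group comprised the class II chain genes H2-Aa, H2-Ab1 and H2-Eb1, the peptide-exchange chaperone chain gene H2-DMa, the invariant chain gene Cd74 and the transactivator gene Ciita. These 6 genes, of 12393 named on the array, were chosen by symbol, and every probe set annotated to exactly 1 of the symbols was kept, which gave 10 of 22626 probe sets. H2-Ab1 had 3 probe sets, H2-Aa and Ciita had 2 each, and H2-Eb1, H2-DMa and Cd74 had 1 each.

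The tumors grew under the skin of nude (NCR Nu/Nu) mice after injection of 10000000 immortalized baby mouse kidney epithelial (iBMK) cells. All the injected cells were ATG5-/-, and so lacked a gene needed to form autophagosomes, and all carried Bcl-2, an inhibitor of apoptosis. In 2 tumors the cells expressed p62-EGFP, a fusion of the autophagy adaptor p62 to a green fluorescent protein, and in 2 they expressed EGFP alone. No tumor was treated. The series sets excess p62 against the tag alone in cells that cannot clear it by autophagy. The labels give neither the age of the mice, nor the promoter of either construct, nor whether tumors with the same construct were grown in different mice or from different cultures. All p-values below therefore measure only the spread between these tumors, which may be technical.

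An MHC class II molecule is a pair of an alpha and a beta chain that carries peptides from the endosome to the cell surface, where CD4+ T cells read them. H2-Aa and H2-Ab1 encode the mouse I-A pair, and H2-Eb1 the beta chain of I-E. The invariant chain (Cd74) blocks the peptide groove until endosomal proteases trim it to a short remnant, which H2-DM exchanges for peptide. Dendritic cells, macrophages and B cells make class II constitutively or on activation, whereas epithelial cells usually make it only after interferon gamma has induced Ciita. Nude mice lack a thymus and most T cells, but keep macrophages, dendritic cells, B cells and NK cells, so a tumor sample holds RNA of injected and host cells.

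Ciita does not bind DNA. It is recruited by factors on the X and Y boxes, a pair of short elements at a fixed distance upstream of class II genes. The promoters of the I-A alpha and I-E beta chain genes are shown because the chain genes are described together below. Both are from RefSeq (GRCm38.p6), 250 bases before to 50 after the annotated start, and no build is given for the array values. Capitals mark the Y box CTGATTGG, the X box core GCAAC and, in H2-Aa, the cyclic AMP response element TGACGTCA. H2-Aa lies at chr17:34287774-34288073 on the minus strand, and H2-Eb1 at chr17:34305617-34305916 on the plus strand.
H2-Aa: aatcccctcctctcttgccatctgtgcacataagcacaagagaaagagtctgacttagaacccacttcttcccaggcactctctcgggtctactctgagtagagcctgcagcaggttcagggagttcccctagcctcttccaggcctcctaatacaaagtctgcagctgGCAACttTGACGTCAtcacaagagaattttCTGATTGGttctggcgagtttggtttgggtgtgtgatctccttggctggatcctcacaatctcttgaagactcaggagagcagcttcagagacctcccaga
H2-Eb1: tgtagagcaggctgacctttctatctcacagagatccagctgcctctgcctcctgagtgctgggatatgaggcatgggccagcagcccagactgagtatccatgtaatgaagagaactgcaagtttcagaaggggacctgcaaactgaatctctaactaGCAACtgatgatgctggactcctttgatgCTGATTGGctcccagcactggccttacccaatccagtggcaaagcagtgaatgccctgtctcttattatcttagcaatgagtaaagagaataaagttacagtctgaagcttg
The Y box began 51 bases before the start in H2-Aa and 62 bases before it in H2-Eb1, and 25 and 24 bases separated it from the X box core. On either strand, and with each promoter counted once, CTGATTGG occurred in 4.10%, GCAAC in 35.2% and TGACGTCA in 1.79% of 32851 promoters of this length. The core followed by the Y box on 1 strand, 20 to 40 bases apart, occurred in 38 of them (0.116%). The 2 listed starts of H2-DMa did not hold CTGATTGG, and H2-Ab1, Cd74 and Ciita had no entry. A match is a description of the letters, and the spacing range was chosen after these promoters had been read.

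Class II transcripts peaked in EGFP tumor 2 and mostly lay far lower in the remaining 3 tumors. H2-Eb1 was the exception, with EGFP tumor 2 only 2.20-fold above EGFP tumor 1. All 10 probe sets had their highest signal in EGFP tumor 2, where 24.6% of all genes did, counted by their brightest probe sets. The p62-EGFP pair therefore averaged less than the EGFP pair for every probe set, but against EGFP tumor 1 alone the direction differed between genes. None of the 8 probe sets bright enough to be tested passed in the comparison of both p62-EGFP with both EGFP tumors. Of all 13576 tested probe sets, 4 fell (0.0295%), and 12 passed in either direction (0.0884%). At an unadjusted p below 0.05, 1 member probe set was lower, that of H2-Eb1, beside 5.77% of all tested probe sets. In a bulk tumor, fewer cells of a type and less RNA per cell cannot be told apart. All levels are MAS5 signals, a linear measure of hybridization that is scaled between arrays and not comparable between probe sets. All differences are of log2(signal + 16), p62-EGFP minus EGFP, with limma's SE and Benjamini-Hochberg adjusted p (n = 2 tumors each).

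H2-Aa, the I-A alpha chain, gave 291 and 371 on its brighter probe set (1452431_s_at) in p62-EGFP tumors 1 and 2, against 234 and 3259 in EGFP tumors 1 and 2. EGFP tumor 1 was the lowest of the 4 tumors and EGFP tumor 2 the highest, so the groups overlapped completely. The means were 331 ± 56.6 in p62-EGFP and 1746 ± 2139 in EGFP tumors (SD), a log2 difference of -1.39 (SE 1.15) that did not pass (limma adjusted p = 0.596). The other H2-Aa probe set (1435290_x_at) gave 150.1 and 219 in p62-EGFP tumors, against 152 and 1959.5 in EGFP tumors. Here p62-EGFP tumor 1 and EGFP tumor 1 lay level, and the log2 difference was -1.54 (SE 1.11, limma adjusted p = 0.548). The suffixes _s_at and _x_at mark probe sets that can bind transcripts of related genes, which class II genes are.

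H2-Ab1, the I-A beta chain, gave 186 and 253 on its brightest probe set (1450648_s_at) in p62-EGFP tumors, against 238 and 1731 in EGFP tumors. EGFP tumor 1 stood between the p62-EGFP tumors on this probe set. The second (1451721_a_at) gave 84.9 and 104 in p62-EGFP tumors, against 132 and 1289.8 in EGFP tumors. The third (1425477_x_at) gave 86.6 and 103 in p62-EGFP tumors, against 111 and 1281 in EGFP tumors. On these last probe sets the groups did not overlap, although the gap to EGFP tumor 1 was small beside that to EGFP tumor 2. The log2 differences were -1.51 (SE 0.87), -1.998 (SE 0.98) and -1.88 (SE 1.04), with limma adjusted p = 0.464, 0.405 and 0.449. The 3 probe sets thus gave like sizes but not the same order of tumors.

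H2-Eb1, the I-E beta chain, gave 58.9 and 47.9 in p62-EGFP tumors, against 105 and 231 in EGFP tumors. Each p62-EGFP tumor was below each EGFP tumor, and the EGFP tumors were 2.20-fold apart. The means were 53.4 ± 7.78 in p62-EGFP and 168 ± 89.2 in EGFP tumors (SD). The log2 difference of -1.32 had the smallest SE of the 8 tested member probe sets, 0.36, and still did not pass (unadjusted p = 0.0129, limma adjusted p = 0.243). Including H2-Eb1, the groups did not overlap for 3 of the 8 tested member probe sets, all lower in p62-EGFP. Of all tested probe sets, 22.2% were lower in this way and 26.7% higher. The rest of the 3 were probe sets of H2-Ab1 alone, and the 2 untested member probe sets overlapped. The I-E partner of H2-Eb1, H2-Ea, which RefSeq lists as a transcribed pseudogene in the C57BL/6J reference strain, gave 6.0 and 7.6 in p62-EGFP tumors, against 8.2 and 159 in EGFP tumors. H2-Ea was too dim on average to be tested, and its signal in EGFP tumor 2 stood alone.

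H2-DMa encodes the alpha chain of H2-DM. It gave 53.5 and 61.7 in p62-EGFP tumors, against 60.6 and 349 in EGFP tumors. EGFP tumor 1 lay between the p62-EGFP tumors, and the log2 difference of -1.19 (SE 0.71) did not pass (limma adjusted p = 0.479). Cd74, the invariant chain, gave 278 and 399 in p62-EGFP tumors, against 290.1 and 2843 in EGFP tumors. Again EGFP tumor 1 lay between the p62-EGFP tumors, and the log2 difference of -1.42 (SE 1.01) did not pass (limma adjusted p = 0.541).

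Ciita, the transactivator of the genes above, gave 8.0 and 11.8 on its brighter probe set (1421210_at) in p62-EGFP tumors, against 7.7 and 44.5 in EGFP tumors. The second (1421211_a_at) gave 3.3 and 7.3 in p62-EGFP tumors, against 1.3 and 24.8 in EGFP tumors. On both, the order of the tumors was that of the brighter H2-Aa probe set, with EGFP tumor 1 lowest and EGFP tumor 2 highest. Both fell short of the level required for testing, a mean log2 value of 5.60 or a signal of about 32.7, and detection calls were not used here. Their log2 differences of -0.55 and -0.33 are values without a test.

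**Figure D1:**
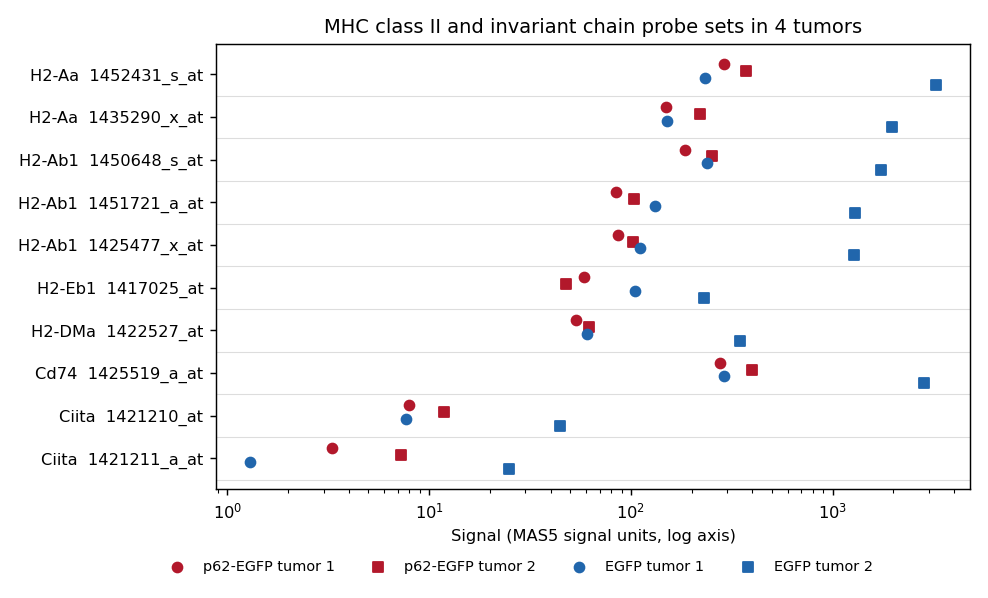
Signal of the 10 member probe sets in each tumor, on a log axis in MAS5 signal units. Red symbols are p62-EGFP tumors and blue symbols EGFP tumors, with circles for tumor 1 and squares for tumor 2. The blue square of EGFP tumor 2 is the highest point of every row, at 3259 for H2-Aa and 44.5 for the brighter Ciita probe set. For H2-Eb1, EGFP tumor 1 also stands apart, with 58.9 and 47.9 in the p62-EGFP tumors against its 105.

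The spread within the EGFP pair exceeded that within the p62-EGFP pair. Among the 8 tested probe sets, EGFP tumor 2 was 2.20-fold to 13.9-fold above EGFP tumor 1, with a median of 9.78-fold. The lowest ratio was that of H2-Eb1, and the other 7 probe sets ran from 5.76-fold for H2-DMa to 13.9-fold for H2-Aa. On the log2(signal + 16) scale 7 of the 8 were apart by 4-fold or more, beside 1.83% of all tested probe sets. Between the p62-EGFP tumors the ratio of tumor 2 to tumor 1 ran from 0.813 for H2-Eb1 to 1.46 for the dimmer H2-Aa probe set, with a median of 1.25. For 9 of the 10 member probe sets p62-EGFP tumor 2 was the higher of the p62-EGFP pair, and H2-Eb1 was the exception. With 1 tumor on each side these ratios have no test.

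The size of the class II difference, and for H2-Aa, Cd74 and Ciita its direction, depended on which EGFP tumor was in the comparison. Against EGFP tumor 2 alone, the log2 differences of the p62-EGFP mean were -3.25 for the brighter H2-Aa probe set, -2.91 for the brightest H2-Ab1 probe set, -1.84 for H2-Eb1, -2.31 for H2-DMa and -3.03 for Cd74. All 8 tested probe sets then passed as lower (limma adjusted p from 4.92e-06 to 1.73e-04), beside 9.74% of all tested probe sets. Against EGFP tumor 1 alone, the same log2 differences were 0.46, -0.12, -0.81, -0.06 and 0.19. The 2 Ciita probe sets, which were not tested, differed by 0.12 and 0.29 against EGFP tumor 1 alone and by -1.23 and -0.94 against EGFP tumor 2 alone. H2-Eb1 passed as lower (limma adjusted p = 0.0287), and the others did not (limma adjusted p from 0.144 to 0.869), beside 4.38% of all tested probe sets lower and 5.15% higher. In these fits the only replicate spread is that between the p62-EGFP tumors, and the lone EGFP tumor is assumed to vary as much, although over all tested probe sets the replicate difference had an SD of 0.273 in the p62-EGFP pair and 0.604 in the EGFP pair. Over the 6 genes the median log2 difference was -1.36 with all tumors, -2.61 when EGFP tumor 1 was left out and 0.032 when EGFP tumor 2 was, and over all 12393 genes it was 0.03 with all tumors.

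**Figure D2:**
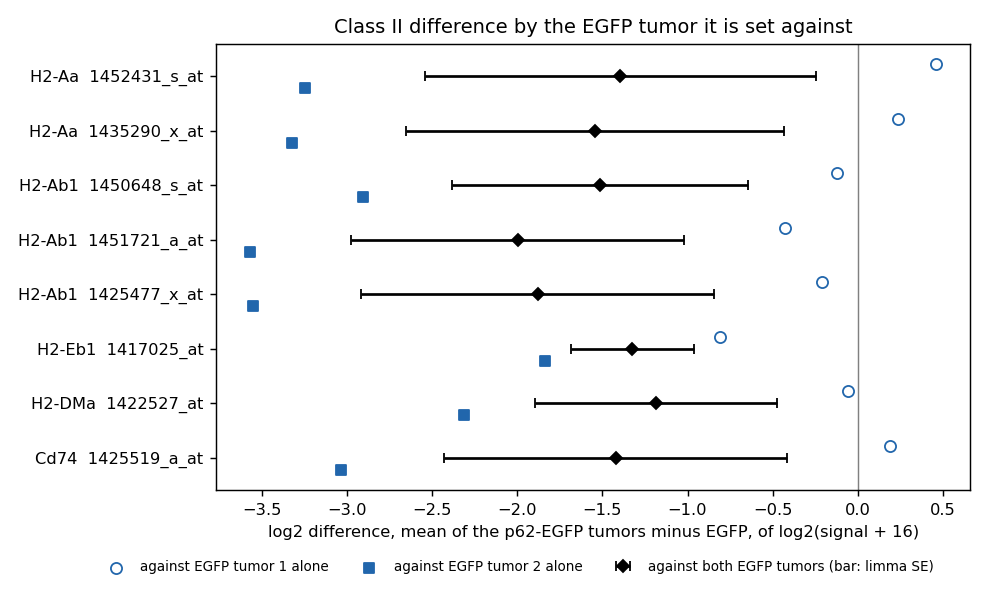
Log2 difference of log2(signal + 16), p62-EGFP mean minus EGFP, for the 8 tested member probe sets. Black diamonds with limma SE bars use both EGFP tumors, open circles EGFP tumor 1 alone and filled squares EGFP tumor 2 alone. The squares run from -3.57 to -1.84, the circles from -0.81 to 0.46, and H2-Eb1 has the leftmost circle and the rightmost square.

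Transcripts of leukocytes shared the high EGFP tumor 2 with the class II genes. Ptprc, the pan-leukocyte CD45, gave 95.9 and 115 in p62-EGFP tumors, against 60.8 and 1264 in EGFP tumors. The summed signal of 6 leukocyte genes was 540.2 and 663 in p62-EGFP tumors, against 346 and 5428 in EGFP tumors. That of 14 macrophage genes was 2581 and 2662 in p62-EGFP tumors, against 1448 and 11155 in EGFP tumors. Among the brightest of these, the lysozyme gene Lyz2 gave 644 and 686 in p62-EGFP tumors, against 314 and 1455 in EGFP tumors. The complement gene C1qa gave 427 and 409.9 in p62-EGFP tumors, against 249 and 1765 in EGFP tumors. All 20 genes of both lists were highest in EGFP tumor 2, like the class II genes, and their part in the class II difference was not tested.

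The class II genes differed from the macrophage and leukocyte lists in where EGFP tumor 1 stood. Both p62-EGFP tumors lay above EGFP tumor 1 for 13 of 14 macrophage genes and 6 of 6 leukocyte genes, with median log2 differences of 0.70 and 0.71. For the 6 class II genes, by their brightest probe sets, both p62-EGFP tumors lay above EGFP tumor 1 for 2, H2-Aa and Ciita, and below it for 1, H2-Eb1, with a median of 0.03. Over all genes, 41.2% lay above EGFP tumor 1 in both p62-EGFP tumors and 35.9% below, with a median of 0.02. Other immune cell lists, described below, had medians near the class II value. These were 0.06 for dendritic cell, 0.03 for B cell and 0.02 for NK and T cell genes. The comparison rests on 1 EGFP tumor and has no test.

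Markers of other cells that make class II were mixed. Of 10 dendritic cell genes measured, 9 were highest in EGFP tumor 2, and their summed signal was 179 and 182 in p62-EGFP tumors, against 199 and 715 in EGFP tumors. Itgax, the integrin CD11c, gave 31.6 and 28.4 in p62-EGFP tumors, against 19.4 and 235 in EGFP tumors. The costimulatory receptor gene Cd40 gave 18.3 and 17.6 in p62-EGFP tumors, against 11.3 and 155 in EGFP tumors. Cd86, another costimulatory gene, gave 15.8 and 16.1 in p62-EGFP tumors, against 9.2 and 78.3 in EGFP tumors. The chemokine receptor gene Ccr7 gave 2.4 and 2.3 in p62-EGFP tumors, against 5.6 and 46.8 in EGFP tumors. These 4 genes were 8.36-fold to 13.7-fold higher in EGFP tumor 2 than in EGFP tumor 1, but only Itgax was bright enough to be tested. On the log2(signal + 16) scale their steps were 2.82 for Itgax, 2.65 for Cd40, 1.90 for Cd86 and 1.54 for Ccr7. The class II median on that scale was 2.52. The transcription factor gene Batf3 gave 44.0 and 46.0 in p62-EGFP tumors, against 76.3 and 100.1 in EGFP tumors. Zbtb46, a factor of classical dendritic cells, was the exception among the 10, at 36.3 and 32.7 in p62-EGFP tumors, against 44.0 and 29.9 in EGFP tumors. The remaining Cd80, Flt3, Xcr1 and Cd209a stayed at or below 20.9 in every tumor and were 2.07-fold to 2.20-fold higher in EGFP tumor 2 than in EGFP tumor 1. Of 7 B cell genes, the adaptor gene Blnk was the only one tested, at 69.9 and 89.3 in p62-EGFP tumors, against 82.6 and 189 in EGFP tumors. Cd79b, a chain of the B cell receptor complex, gave 2.0 and 3.1 in p62-EGFP tumors, against 1.3 and 32.4 in EGFP tumors. Its partner Cd79a gave 4.3 and 4.2 in p62-EGFP tumors, against 5.5 and 13.2 in EGFP tumors, and Ms4a1, which encodes CD20, gave 10.7 and 10.0 in p62-EGFP tumors, against 3.3 and 18.3 in EGFP tumors. The other 3 B cell genes, Pax5, Fcer2a and Cr2, were not highest in EGFP tumor 2 and stayed at or below 7.3. Of the B cell list, 4 genes were highest in EGFP tumor 2. No gene of these lists was at 0 in any tumor.

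NK and T cell genes were all highest in EGFP tumor 2, with a summed signal of 98.4 and 117 over 13 genes in p62-EGFP tumors, against 108 and 3813 in EGFP tumors. The granzyme gene Gzmb gave 1.1 and 6.2 in p62-EGFP tumors, against 1.5 and 985 in EGFP tumors. Cd3d, a chain of the T cell receptor complex, gave 0.6 and 6.6 in p62-EGFP tumors, against 0.5 and 219 in EGFP tumors, although the hosts were nude mice. The summed signal of 8 endothelial genes was 185 and 243 in p62-EGFP tumors, against 387 and 493 in EGFP tumors. The part of any of these cells in the class II difference was not tested. Of 8 kidney epithelial and keratin genes, none was highest in EGFP tumor 2. Epcam, an epithelial adhesion molecule, gave 361 and 660.3 in p62-EGFP tumors, against 351 and 109 in EGFP tumors. Krt18, a simple epithelial keratin, gave 545 and 627 in p62-EGFP tumors, against 729.6 and 254 in EGFP tumors. The keratin gene Krt19 gave 333 and 341 in p62-EGFP tumors, against 93.6 and 156 in EGFP tumors, so that EGFP tumor 1 was its lowest. The kidney markers Pax8 and Cdh16 and the keratin gene Krt7 stayed at or below 11.2 in every tumor.

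**Figure D3:**
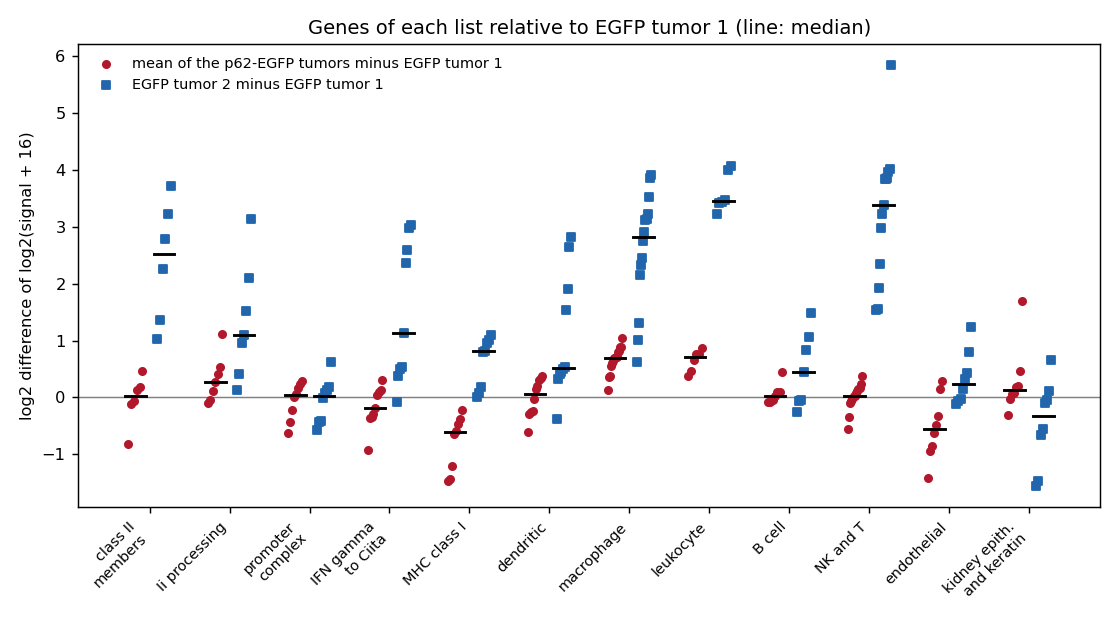
Log2 differences of log2(signal + 16) relative to EGFP tumor 1 for the genes of each list, 1 probe set a gene, with list medians as black lines. Red circles are the mean of the p62-EGFP tumors and blue squares EGFP tumor 2. The class II members have medians of 0.03 and 2.52, the macrophage genes 0.70 and 2.83, and the promoter complex genes 0.04 and 0.03.

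Interferon gamma is the classical inducer of Ciita, and the genes of that route differed among themselves. None of the 7 tested of 9 measured genes passed, and 5 of the 9 were below EGFP tumors 1 and 2 in each p62-EGFP tumor, as were 18.0% of all genes. EGFP tumor 2 was highest for 8 of the 9, as for 24.6% of all genes. Ifng itself gave 0.2 and 3.1 in p62-EGFP tumors, against 0.4 and 112 in EGFP tumors, and was too dim on average to be tested. The transcription factor gene Irf1, which activates a Ciita promoter, gave 208 and 220.1 in p62-EGFP tumors, against 206 and 1123 in EGFP tumors (limma adjusted p = 0.514). Irf8, a factor of myeloid cells, gave 40.8 and 49.6 in p62-EGFP tumors, against 53.7 and 552 in EGFP tumors (limma adjusted p = 0.449). The myeloid factor gene Spi1 gave 30.5 and 27.5 in p62-EGFP tumors, against 20.5 and 203 in EGFP tumors. These 4 genes shared with class II the single high tumor. Socs1, a feedback inhibitor of the route, gave 10.7 and 7.8 in p62-EGFP tumors, against 15.8 and 53.3 in EGFP tumors.

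The receptor and kinase genes of the route differed less between the EGFP tumors, although all but Ifngr1 were highest in EGFP tumor 2. The ratio of EGFP tumor 2 to EGFP tumor 1 was 0.94 for Ifngr1, 1.52 for Ifngr2, 1.46 for Jak1 and 1.32 for Jak2. Ifngr1, the ligand-binding receptor chain, gave 75.3 and 96.0 in p62-EGFP tumors, against 175 and 164 in EGFP tumors. Both p62-EGFP tumors were lower and the EGFP tumors were close to each other, yet the log2 difference of -0.87 did not pass (limma adjusted p = 0.205). Ifngr2, the second chain, gave 78.9 and 58.3 in p62-EGFP tumors, against 60.4 and 92.1 in EGFP tumors. The kinase gene Jak1 gave 351 and 385 in p62-EGFP tumors, against 479.5 and 701 in EGFP tumors, and Jak2 gave 204 and 185 in p62-EGFP tumors, against 240 and 316 in EGFP tumors (limma adjusted p = 0.297 and 0.350).

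The genes of factors that hold Ciita at the X and Y boxes did not share the high EGFP tumor 2. They were listed with Usf1 as the promoter complex genes. All 8 genes of this list were tested and none passed, with a median log2 difference of 0.00 and 1 of the 8 highest in EGFP tumor 2. Nfya and Nfyc, 2 of the 8, were below EGFP tumors 1 and 2 in each p62-EGFP tumor, as were 18.0% of all genes. Rfx5, a subunit of the X box factor RFX, gave 239.6 and 273 in p62-EGFP tumors, against 226 and 261 in EGFP tumors. The other RFX subunit genes were also level, Rfxap at 211 and 199 in p62-EGFP tumors, against 196 and 208 in EGFP tumors, and Rfxank at 67.0 and 55.1 in p62-EGFP tumors, against 48.9 and 55.3 in EGFP tumors. The Y box is bound by NF-Y, whose subunit gene Nfya gave 199 and 201 in p62-EGFP tumors, against 317 and 208 in EGFP tumors (limma adjusted p = 0.532). Nfyb gave 175 and 147 in p62-EGFP tumors, against 223 and 163 in EGFP tumors, and Nfyc gave 330.3 and 374 in p62-EGFP tumors, against 411 and 405 in EGFP tumors. Creb1, whose product binds cyclic AMP response elements, gave 79.4 and 74.6 in p62-EGFP tumors, against 76.3 and 52.4 in EGFP tumors. Usf1, which can act on a Ciita promoter, was the gene highest in EGFP tumor 2, at 74.6, with 50.2 and 61.8 in the p62-EGFP tumors and 42.9 in EGFP tumor 1.

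Genes that process the invariant chain and antigen were mixed. All 7 measured genes were tested and none passed, with a median log2 difference of -0.45. EGFP tumor 2 was highest for 6 of the 7, all but Ctsl, as for 24.6% of all genes. Ctss, the protease that makes the last invariant chain cut in most antigen-presenting cells, gave 432 and 511 in p62-EGFP tumors, against 209 and 1949 in EGFP tumors (limma adjusted p = 0.848). The asparagine endopeptidase gene Lgmn gave 428 and 526 in p62-EGFP tumors, against 353 and 1571 in EGFP tumors (limma adjusted p = 0.671). Both genes were above EGFP tumor 1 in both p62-EGFP tumors, as Ctsb and Ctsd also were. Ctsb, a cathepsin, gave 1103 and 1076 in p62-EGFP tumors, against 895 and 2584 in EGFP tumors, and Ctsd gave 637 and 674 in p62-EGFP tumors, against 449 and 975 in EGFP tumors. Ifi30, the thiol reductase GILT, gave 505 and 413 in p62-EGFP tumors, against 469 and 925 in EGFP tumors (limma adjusted p = 0.509). Ctsl, the cathepsin that cuts the invariant chain in thymic epithelium, was nearly level, at 1809 and 1455 in p62-EGFP tumors, against 1489 and 1639.8 in EGFP tumors. Sppl2a, which clears the last membrane stub of the invariant chain, gave 256 and 226 in p62-EGFP tumors, against 259.5 and 353 in EGFP tumors.

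The remaining class II genes were dim. H2-Oa, a chain of the DM inhibitor H2-DO, gave 14.0 and 14.7 in p62-EGFP tumors, against 21.8 and 27.6 in EGFP tumors. H2-DMb2, a beta chain of H2-DM, gave 15.0 and 17.9 in p62-EGFP tumors, against 9.4 and 22.2 in EGFP tumors. Neither was tested, and together with H2-Ea they are the 3 of 6 further class II genes with a probe set of a single symbol.

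MHC class I chain genes, which every nucleated cell can express, were listed with genes of peptide loading and the immunoproteasome, and kept another order. The chain genes measured were B2m, H2-D1 and H2-K1, and the others were Tapbp, Tap1, Tap2, Psmb8 and Psmb9. All 8 measured genes of this list were below EGFP tumors 1 and 2 in each p62-EGFP tumor, and none passed. Over all genes, 18.0% were below in this way and 26.8% above. The median log2 difference of the list against EGFP tumor 1 alone was -0.61, and EGFP tumor 2 exceeded EGFP tumor 1 by a median of 0.81. The class II values were 0.03 and 2.52. H2-Eb1 had values of -0.81 and 1.03 on the same measures. The chain genes B2m, H2-D1 and H2-K1 had -0.38, -0.22 and -0.64 on the first measure. On the second they had 0.0004, 0.18 and 0.07, below the median of the list. B2m, the class I light chain, gave 2534 and 2469.6 in p62-EGFP tumors, against 3266 and 3267 in EGFP tumors. The difference between the lists was not tested.

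The genes most like the class II genes were sought by the distance between log2 profiles, each centred on its own mean, over the 4 tumors. The profile compared was the mean of the 5 tested member genes. Genes with clone or predicted-gene names were passed over, and the 7742 other tested genes were ranked. The 8 nearest of those ranked, in order, were Cd274, Ifit3, Cxcl10, Vcam1, Lpxn, Icam1, Mx1 and Psmb10. Cd274, the immune checkpoint ligand PD-L1, gave 28.8 and 40.6 in p62-EGFP tumors, against 40.5 and 316 in EGFP tumors. The chemokine gene Cxcl10 gave 301 and 325 in p62-EGFP tumors, against 297 and 2036.5 in EGFP tumors. The interferon-induced genes Ifit3 and Mx1, the adhesion molecule genes Vcam1 and Icam1, the leukocyte adaptor gene Lpxn and the immunoproteasome subunit gene Psmb10 had the same single high tumor. Lpxn, Icam1 and Mx1 exceeded the signal of about 32.7 needed for testing in EGFP tumor 2 alone. They entered the ranking only through that tumor. The distances of the 8 ran from 0.109 to 0.258, while those of the members themselves ran from 0.232 for H2-Ab1 to 1.16 for H2-Eb1. None of the 8 passed (limma adjusted p from 0.403 to 0.536). With 4 tumors, 1 of which stands apart, a short distance says mainly that a gene shares the size of that step.

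**Figure D4:**
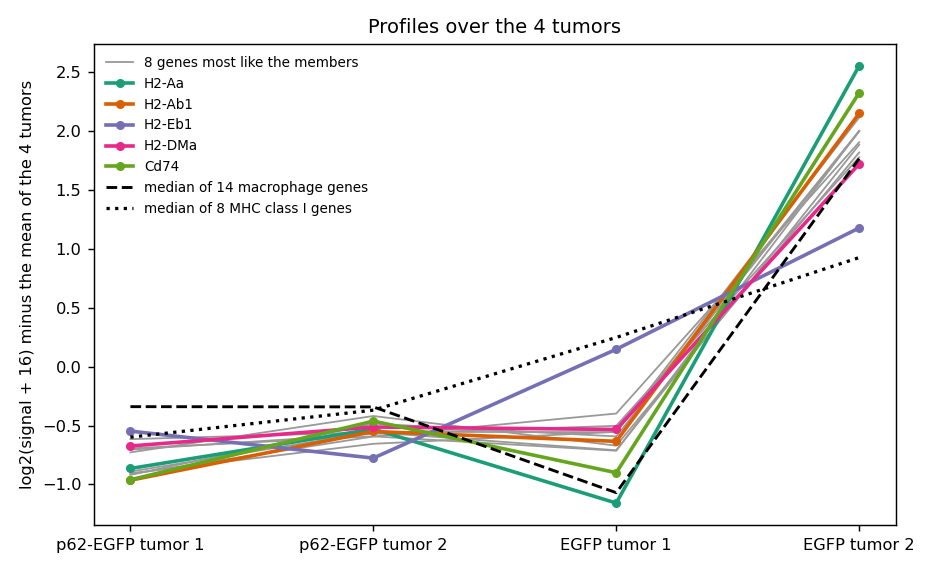
Centred log2(signal + 16) profiles over the 4 tumors for the brightest probe sets of the 5 tested member genes (coloured) and the 8 nearest genes (grey). Black lines are the medians of 14 macrophage genes (dashed) and of the 8 class I chain, peptide loading and immunoproteasome genes (dotted). H2-Aa, H2-Ab1, H2-DMa and Cd74 lie low in the first 3 tumors and step up in EGFP tumor 2. H2-Eb1 is already higher in EGFP tumor 1, as is the dotted median.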

How the data were processed

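Per the labels' protocols, biotin-labelled cRNA of each of the 4 tumors went onto 1 Affymetrix mouse array. The table the authors deposited holds linear signal intensities for which the submitters' processing notes name MAS5; version and settings are not given in the sources used here. With the top and bottom 2% of probe sets removed, the mean signal was 150.04 on every array, and array medians ran from 57.7 to 60.9, so the authors' scaling was kept. The 64 control probe sets were left out. Of the other 22626, 20380 carried 1 gene symbol, 691 several and 1555 none; no gene was named from the last 2 kinds.

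Signals were taken as log2(signal + 16), which understates the change of dim probe sets. Probe sets with a mean at or above the 40th percentile (13576) were fitted in R 4.3.3 with limma 3.58.1 (lmFit, then eBayes with an intensity trend). The two-sided p-values were adjusted over all of them by Benjamini-Hochberg, with a threshold of 0.05. The fit was tested on simulated data. A gene in a list was represented by its probe set of highest mean. The members and the lists were chosen with earlier results of these data known. The genes named are all members, all measured genes of the pathway lists, examples from each marker list, and the 8 genes of nearest profile. Marker list examples were taken from the 4 members of highest mean signal; Cd86, Ccr7, Cd80, Flt3, Xcr1, Cd209a, Pax5, Fcer2a, Cr2, Cd3d, Pax8, Cdh16 and Krt7 lie outside that rule and were named after their values were seen. Figures were drawn with matplotlib 3.10.9. The 4 arrays limit the precision: 2 degrees of freedom remain, and an exact two-sided permutation test of 2 against 2 cannot go below p = 0.333. Alternatives covered array scaling, pseudocount, filter, variance model, a replicate block, averaging of probe sets, and leaving out each tumor.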

Additional observations from a re-analysis of the deposited data

How the results depend on the processing

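Under 9 alternatives that kept all 4 tumors, no member probe set passed or turned its direction; the lowest limma adjusted p was 0.192, for H2-Eb1 with a replicate block, and the median over the 6 genes ran from -1.43 to -1.14. The filter at the 60th percentile left H2-Eb1 and H2-DMa untested. Leaving out each tumor in turn gave 0 to 8 member probe sets past the threshold, 0 to 2835 of all probe sets, and medians from -2.61 to 0.032; these fits leave 1 tumor in a group, which is assumed to vary like the other pair. The log2 differences of both H2-Aa probe sets and of Cd74 turned direction without EGFP tumor 2 and ran from -3.25 to 0.46, from -3.32 to 0.24 and from -3.03 to 0.19. The 2 untested Ciita probe sets also changed sign without that tumor and ran from -1.23 to 0.12 and from -0.94 to 0.29. Of all tested probe sets, 12 passed, against 6 with no filter, 7 with the filter at the 60th percentile, 37 with the replicate block and 1 gene when probe sets were averaged; the cause was not tested. Tumors of the same number deviated from their group means with a correlation of 0.08 over tested probe sets, so the numbers were not taken as pairs. For 9 of the 10 member probe sets, however, tumor 2 was the higher in both groups. With the replicate block, 7 of the 8 tested member probe sets were lower at an unadjusted limma p below 0.05, against 1 in the main fit. Of all 13576 tested probe sets, 844 were lower in this way, against 784 in the main fit. Dim signals limit Ciita, H2-Ea and H2-Oa.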
